A study of Mus musculus with 8 samples.

Results

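The nuclear-encoded subunits of respiratory complexes I to V were compared between Mitol Δ/Δ and control hematopoietic stem cells (HSCs). The members were chosen by gene symbol alone, as the rows of the count table that begin with Nduf, Sdh, Uqcr, Cox4 to Cox8 or Atp5 followed by a subunit number or letter, together with Cyc1. They came to 90 rows of 22065 named genes. Of these, 82 are annotated subunits, with 37 in complex I, 4 in complex II, 9 in complex III, 15 in complex IV and 17 in complex V. The other 8 are Ndufa4l2, a paralog of Ndufa4, the supercomplex factor Cox7a2l, and 6 pseudogenes or gene copies. Cox6a2, Cox7b2 and Cox8c, tissue forms of complex IV, were not analysed here.

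The libraries were made from 100 sorted HSCs each, 4 from Mitol Δ/Δ mice (Mitol Flox/Flox; MX1-cre +) and 4 from control mice (Mitol Flox/Flox; MX1-cre -). All were C57BL/6 mice aged 8 to 10 weeks. The floxed allele and the injection of Poly:IC were common to both groups, and the cells were sorted 1 week after Poly:IC as Lineage-, EPCR+, CD48- and CD150+. The definition of long-term HSCs in the study has c-Kit+ beside these markers. MX1-cre is driven by an interferon-responsive promoter and is switched on by Poly:IC in blood-forming cells, and in other tissues that respond to interferon as well. Whether each library came from a separate mouse is not given in the sources used here, so the p-values measure the spread between these libraries. MITOL, encoded by Marchf5, is a ubiquitin ligase of the outer mitochondrial membrane.

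Complexes I to IV pass electrons from NADH and succinate through ubiquinone and cytochrome c to oxygen, and complexes I, III and IV pump protons out of the matrix as they do so. Complex V, the ATP synthase, uses the returning protons to make ATP. Complexes I, III, IV and V mix subunits encoded in mitochondrial DNA with nuclear-encoded ones, whereas complex II is wholly nuclear-encoded. Quiescent HSCs are known for a low respiratory rate and a reliance on glycolysis.

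Counts on named genes ranged from 7214935 to 12398138 per library. Marchf5 did not separate the groups, with normalized counts of 232 to 308 in Mitol Δ/Δ and 262 to 333 in control libraries (log2 fold change -0.15, edgeR, adjusted p = 0.498). Per the methods of the study, deletion of the gene was checked by PCR before mice were counted as Mitol Δ/Δ. Counts per gene do not show which exons the reads cover. All 16 HSC markers examined were present, and their summed level was 4861 to 5321 CPM (counts scaled to a common library total) in Mitol Δ/Δ and 6453 to 7258 CPM in control libraries. Of the 16, 5 were called lower and 0 higher, against 3.75% and 4.68% of all tested genes. Among erythroid markers, 2 were higher in all 4 Mitol Δ/Δ libraries than in any control, as were 8.17% of all tested genes. On the scale of normalized counts, Hbb-bt was at 815, 801, 1432 and 1408 in replicates 1 to 4 against 144 to 595 in controls, and Gata1 at 114, 131, 297 and 305 against 6.29 to 31.9. Some others were high in 1 library, and Mitol Δ/Δ replicate 3 held 1387 normalized counts of Slc4a1, whereas the other 7 libraries held 0 to 13.2. The 12 erythroid markers summed to 562 to 955 CPM in Mitol Δ/Δ and 514 to 698 CPM in control libraries. Of the 7 tested, 2 (28.6%) were called higher, against 4.68% of all tested genes. Of these 7, 6 had a positive and 1 a negative log2 fold change. Car2 held the most normalized counts of the 12 in every library. Its ranges overlapped, at 3631 to 4550 in Mitol Δ/Δ and 3885 to 6021 in control libraries. Those of Alas2 (147 to 220 against 122 to 211) and Epor (86.9 to 191.5 against 70.6 to 113) overlapped too. Mitol Δ/Δ replicate 4 held 523 normalized counts of Car1, against 0 to 52.8 in the other libraries. Of 10 neutrophil, 8 B-cell, 7 T-cell and 8 mast-cell and basophil markers, 9, 4, 3 and 1 were in the table. Their summed levels were at most 109, 21.8, 27.1 and 2.25 CPM in any library. The part of these markers in the results below was not tested, and in bulk libraries fewer cells of a type and less RNA per cell cannot be told apart.

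Transcripts of the respiratory chain were higher in Mitol Δ/Δ HSCs in all 5 complexes. Of the 83 member rows that passed the expression filter, among them 81 of the 82 subunits, 26 were called higher at an adjusted p-value under 0.05 (edgeR quasi-likelihood test with Benjamini-Hochberg adjustment over 16444 genes) and 0 were called lower. This is 31.3% of the tested rows, against 4.68% of all tested genes called higher and 3.75% called lower. Of the tested subunits, 74 had a positive log2 fold change, and their median was 0.41, against -0.02 over all tested genes. At an unadjusted p-value under 0.05, 51 subunits were higher and 1, Atp5l, was lower. All called rows were subunits, and their fold changes lay between 1.31 and 1.96. DESeq2 called 39 of the 82 member rows for which it gave an adjusted p-value higher and 0 lower, where 8.19% of all genes were called higher.

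The 4 Mitol Δ/Δ libraries lay above all 4 control libraries for 33 subunits, which is 39.8% of the tested rows, and below them for 0. Over all tested genes, groups were separate in 8.17% in the higher and 7.18% in the lower direction. For a single gene, an exact permutation test of 4 against 4 libraries (2-sided, 70 arrangements) cannot give a p-value below 0.0286, and each separate gene reached it. Of the 26 called subunits 24 had separate groups, and the exceptions were Cyc1 and Atp5d. The count of calls varied with the libraries kept. It was 6, 6, 10 and 38 without Mitol Δ/Δ replicates 1 to 4 in turn, and 30, 3, 8 and 7 without control replicates 1 to 4. Ndufb5 and Cox6a1 were called in all 8 of these fits, 8 subunits in at least 4 and 13 in at most 2. Without Mitol Δ/Δ replicate 4 a single subunit, Atp5l, was called lower.

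The summed level of the subunits of each complex gave separate groups in all 5 cases. Complex I summed to 1391 ± 111 CPM (mean ± SD, n = 4) in Mitol Δ/Δ and 1101 ± 52.2 CPM in control libraries, a ratio of 1.26. For complex II the sums were 438 ± 62.9 and 335 ± 23.4 CPM, a ratio of 1.31, and for complex III 572 ± 64.9 and 408 ± 53.5 CPM, a ratio of 1.40. Complex IV summed to 735 ± 101 and 514 ± 56.3 CPM, with a ratio of 1.43, and complex V to 1870 ± 245 and 1336 ± 152 CPM, with a ratio of 1.40. In all, the 82 subunits held 0.419% to 0.540% of the counts of a Mitol Δ/Δ library and 0.353% to 0.405% of a control library. Mitol Δ/Δ replicate 4 and control replicate 1 were the nearest libraries across the groups. Sums over genes were not tested, and neither were differences between complexes.

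**Figure D1:**
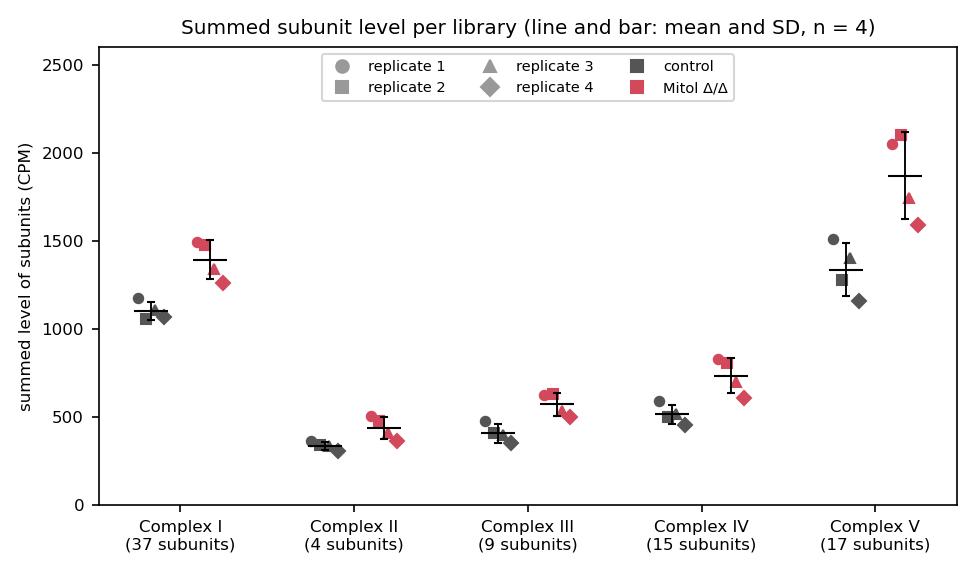
Summed level of the subunits of each complex, in CPM on a linear axis that starts at 0, with 1 point per library (shape gives the replicate) and a line and bar for the mean and SD of 4 libraries. In each complex every Mitol Δ/Δ library lies above every control library, with Mitol Δ/Δ replicates 1 and 2 at the top and replicate 4 nearest to the controls.

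The median log2 fold change was lowest in complex I, at 0.32 over 37 tested subunits with 8 called, and highest in complex III, at 0.62 over 9 with 5 called. It was 0.40 in complex II (2 of 4 called), 0.49 in complex IV (4 of 14 called) and 0.44 in complex V (7 of 17 called). Log2 fold changes were positive for 35, 4, 9, 12 and 14 of the tested subunits of complexes I to V. Groups were separate in the higher direction for 14, 3, 5, 4 and 7 of them. Mitol Δ/Δ replicate 3 was the library with the highest sum of erythroid markers. Without it the medians of complexes I to V were 0.37, 0.45, 0.64, 0.53 and 0.45. In that fit 10 members were called higher, against 26 with all libraries. The other Mitol Δ/Δ libraries also held more Hbb-bt and Gata1 than the controls, and the part of this in the medians was not tested.

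**Figure D2:**
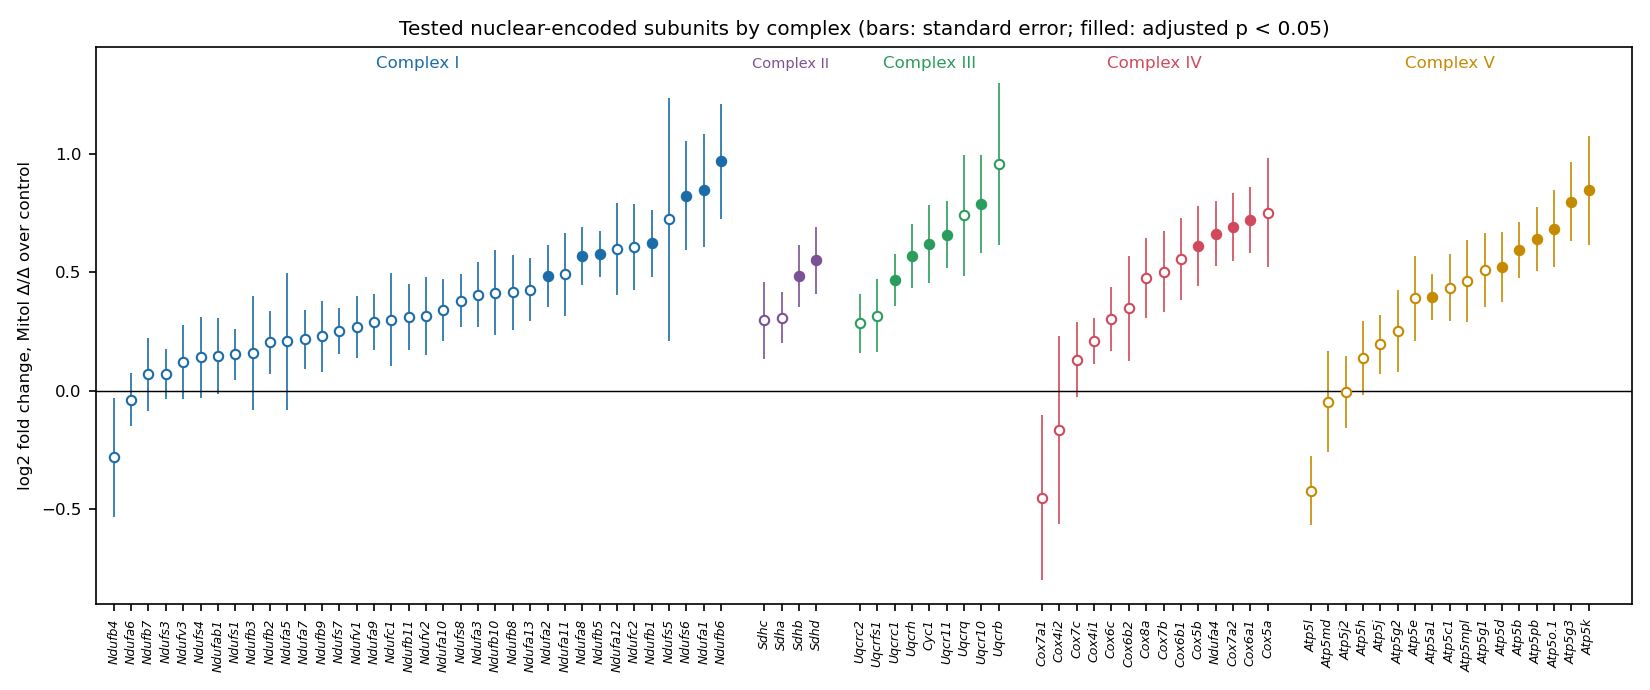
Log2 fold change of 80 tested subunits, Mitol Δ/Δ over control, ordered within its complex, with bars for the standard error and filled points for an edgeR adjusted p-value under 0.05. Filled points occur in all 5 complexes and lie between 0.39 and 0.97, and 7 of the 80 points lie below 0.

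Within each group the libraries kept a similar order across the subunits. Mitol Δ/Δ replicate 1 was the highest of its group for 34 of the 81 tested subunits and replicate 2 for 33, while replicate 4 was the lowest for 51. Among controls, replicate 1 was the highest for 53 and replicate 4 the lowest for 42. Subunits thus tended to be high or low in the same libraries of a genotype. Their genes are spread over 19 chromosomes, with at most 8 on any of them, and the called ones over 15.

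**Figure D3:**
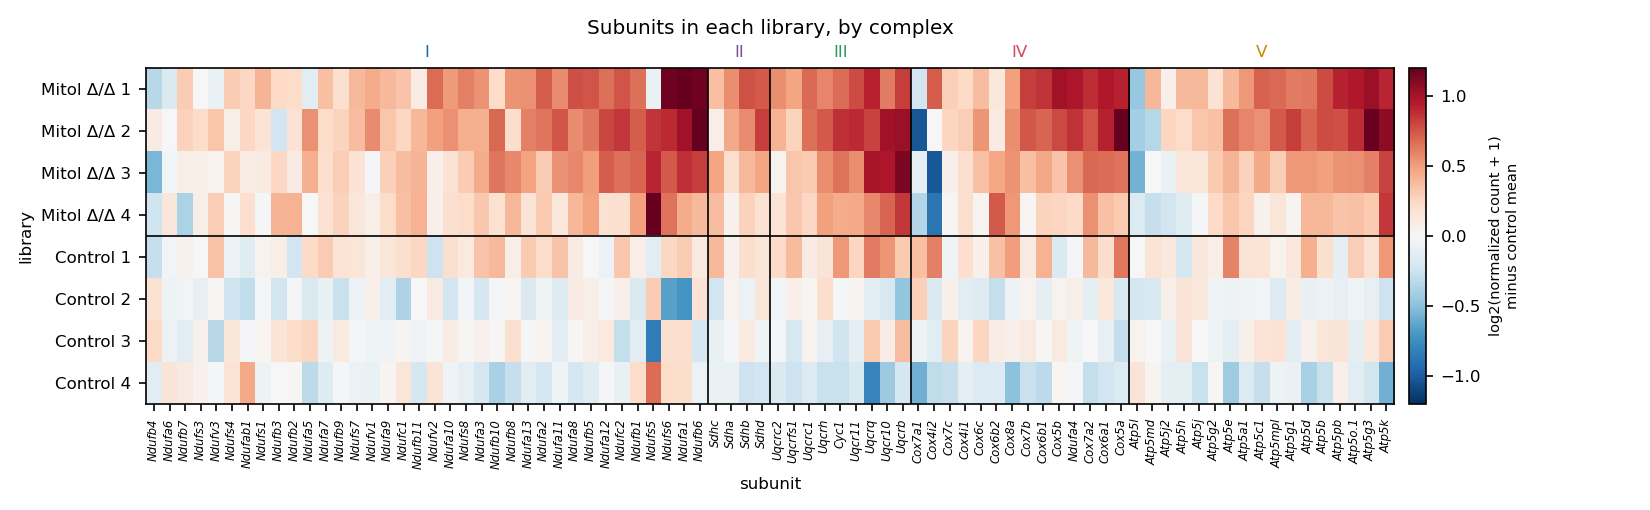
Color map of log2(normalized count + 1) minus the control mean for 80 tested subunits (columns, by complex and log2 fold change) in the 8 libraries (rows). Red cells fill most of the rows of Mitol Δ/Δ replicates 1 and 2, paler ones those of replicates 3 and 4, and among controls replicate 1 is the reddest.

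The promoters of the subunits were searched for motifs of factors known to act on respiratory genes. RefSeq promoters (GRCm38.p6, from 250 bases before to 50 after the annotated start) were matched by symbol for 68 of the 82 subunits, 22 of them called. The motifs searched, on both strands, were GCGCATGCG for NRF1, CCGGAAGT for the ETS factor GABP, AAGATGGCG for YY1, AAGGTCA for ERR, the estrogen-related receptor,, CACGTG for the MYC E-box and GGGCGG for SP1. None of these letter strings contains another. The NRF1 motif was in 11.8% of subunit promoters, in 1.95% of the promoters of all 27025 genes and in 4.01% of those of 10410 tested genes. It was held by 5 of 22 called subunits (22.7%), Ndufa8, Uqcr11, Uqcrc1, Cox6a1 and Atp5k, and by 3 of 46 others (6.52%). For YY1 the shares were 10.3% of subunits, 1.64% of all genes and 3.42% of tested genes, and for ERR they were 11.8%, 5.38% and 4.03%. GABP, E-box and SP1 motifs were in 7.35%, 8.82% and 39.7% of subunit promoters and in 8.81%, 11.6% and 66.7% of those of tested genes. Between called and other subunits, YY1 went the opposite way to NRF1, with 1 of 22 (4.545%) against 6 of 46 (13.04%). The remaining motifs differed less. GABP was in 9.091% of called and 6.522% of other subunits, and ERR in 13.64% and 10.87%. The E-box was in 9.091% and 8.696%, and SP1 in 40.91% and 39.13%. These shares are descriptions of the letters in a window and were not tested.

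Stretches of 60 bases from 5 called subunits are shown for their NRF1 or GABP motif, in capitals, 1 or 2 from each complex that has one among its called subunits. They run 5′ to 3′ along the gene, with RefSeq coordinates on GRCm38.p6, a build older than that of the count files. In Cox6a1 and Atp5k the motif reads on both strands, so the capitals span 1 base more. In Ndufa8 and Uqcrh the motif lies on the opposite strand and appears as its reverse complement.
Ndufa8, chr2:36049339-36049398, minus strand: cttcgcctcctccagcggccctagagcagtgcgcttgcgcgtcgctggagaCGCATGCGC
Uqcr11, chr10:80406853-80406912, minus strand: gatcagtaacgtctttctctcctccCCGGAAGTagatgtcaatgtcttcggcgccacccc
Uqcrh, chr4:116075071-116075130, minus strand: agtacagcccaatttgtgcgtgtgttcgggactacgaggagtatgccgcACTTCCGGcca
Cox6a1, chr5:115349086-115349145, minus strand: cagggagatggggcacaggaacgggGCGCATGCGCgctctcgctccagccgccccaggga
Atp5k, chr5:108434415-108434474, minus strand: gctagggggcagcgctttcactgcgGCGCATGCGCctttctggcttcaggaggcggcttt

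Complex I oxidizes NADH and reduces ubiquinone. It is built on a core of conserved subunits, 7 of them nuclear-encoded, surrounded by accessory subunits that hold the structure and its assembly together. Of its 30 accessory subunits 7 were called. The smallest adjusted p-value of all members belonged to Ndufb5, an accessory subunit of the membrane arm (chr3:32791139-32805715 on GRCm39). Ndufb5 had normalized counts of 1028, 942, 859.6 and 851 in Mitol Δ/Δ replicates 1 to 4 and 607, 638, 641 and 550.5 in control replicates 1 to 4. The groups were separate with a wide gap, and the fold change was 1.49 (log2 0.58, SE 0.0971, edgeR, adjusted p = 0.00844, called in 8 of 8 fits that left out a library).

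Other accessory subunits of the membrane arm also rose. Ndufa8 had normalized counts of 489, 424, 427 and 377 in Mitol Δ/Δ replicates 1 to 4 and 306, 305, 287 and 246 in control replicates 1 to 4. No library of one group reached the other, and the log2 fold change was 0.57 with an SE of 0.122 (edgeR, adjusted p = 0.0199, called in 4 of 8 fits). Ndufb6 changed most by size in this complex, with normalized counts of 111, 127, 87.9 and 64.5 in Mitol Δ/Δ replicates 1 to 4 and 52.8, 55.3, 42.4 and 46.7 in control replicates 1 to 4. Its 4 Mitol Δ/Δ libraries were above the controls at a log2 fold change of 0.97 with an SE of 0.242 (edgeR, adjusted p = 0.0323, called in 2 of 8 fits), and 60.4% of its exon bases lie in exons of genes on the other strand. Ndufb1 (0.62, edgeR, adjusted p = 0.0231) and Ndufa1 (0.85, edgeR, adjusted p = 0.047) were called with separate groups as well, and 54.8% of the exon bases of Ndufb1 are shared with Cpsf2 on the other strand. The strand setting of the counting is not given in the sources used here, so reads of such overlapping genes cannot be told apart.

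In the peripheral arm, the accessory subunits Ndufa2 (0.48, edgeR, adjusted p = 0.0433) and Ndufs6 (0.82, edgeR, adjusted p = 0.0455) were higher. Ndufs6, which binds zinc, had normalized counts of 160.4, 133, 119 and 112 in Mitol Δ/Δ replicates 1 to 4 and 84.4, 44.7, 81.0 and 82.6 in control replicates 1 to 4. Control replicate 2 was far below the other controls, and the lowest Mitol Δ/Δ library still exceeded the highest control. Ndufs6 was called in 1 and Ndufa2 in 2 of the 8 fits.

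The 7 core subunits carry the flavin and iron-sulfur centres that lead electrons to ubiquinone, and all had positive log2 fold changes, with a median of 0.27. On the ubiquinone side, Ndufs8, which holds iron-sulfur clusters, had normalized counts of 592, 529, 481 and 454 in Mitol Δ/Δ replicates 1 to 4 and 423, 379.9, 394 and 364 in control replicates 1 to 4. Its groups were separate, and it missed the threshold (log2 fold change 0.38, SE 0.113, edgeR, adjusted p = 0.0565). The log2 fold changes were 0.25 for Ndufs7 and 0.07 for Ndufs3, with overlapping groups in both. Of the subunits that take electrons from NADH, 0 of 3 passed. Ndufv1, which binds NADH and flavin, had 816, 886, 590.4 and 625 in Mitol Δ/Δ and 630.4, 622, 575 and 564 in control libraries, in normalized counts. For Ndufv1, Ndufv2 and Ndufs1 the log2 fold changes were 0.27, 0.32 and 0.15, with overlapping groups in each.

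At the other end of complex I, 2 accessory subunits had negative log2 fold changes, Ndufb4 (-0.28, edgeR, adjusted p = 0.515) and Ndufa6 (-0.04, edgeR, adjusted p = 0.864). Ndufb4 had only 34.8 to 55.1 in Mitol Δ/Δ and 42.2 to 60.3 in control libraries, in normalized counts, and 39.7% of the 75-base windows of its transcript have an exact copy elsewhere in GRCm39. The lowest level in the complex was that of Ndufs5, at 5.48 to 14.8 in Mitol Δ/Δ and 2.83 to 9.88 in control libraries, and 69% of its windows have such a copy. The remaining 21 accessory subunits had log2 fold changes from 0.07 for Ndufb7 to 0.72 for Ndufs5 and did not pass. Their groups were separate in the higher direction for 5 of them, Ndufb9, Ndufa9, Ndufc1, Ndufb8 and Ndufa12. Ndufc2 (0.61, edgeR, adjusted p = 0.0586) and Ndufa13 (0.43, edgeR, adjusted p = 0.0655) came nearest to the threshold, whereas Ndufs4, which completes the NADH-oxidizing end, and Ndufab1, the mitochondrial acyl carrier protein, had log2 fold changes of 0.14 and 0.15. Per kilobase of the canonical transcript, Ndufs7 was the most abundant subunit of the complex, at a mean level of 100.2 CPM per kb, and 56.9% of its exon bases overlap the opposite-strand gene Gamt. On the length of merged exons Ndufa2 was the most abundant, at 80.3 CPM per kb against 29.8 for Ndufs7.

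Complex II oxidizes succinate and is also an enzyme of the citric acid cycle. Its 4 subunits all had positive log2 fold changes, and 2 passed. Sdhd, a membrane anchor (chr9:50507642-50515195 on GRCm39), had normalized counts of 1039, 1106, 866 and 707 in Mitol Δ/Δ replicates 1 to 4 and 688, 688, 600 and 531 in control replicates 1 to 4. Its lowest Mitol Δ/Δ library, replicate 4, lay just above the highest controls (log2 fold change 0.55, SE 0.14, edgeR, adjusted p = 0.0346, called in 2 of 8 fits). Sdhb, the iron-sulfur subunit, had 888, 776, 687 and 635 in Mitol Δ/Δ replicates 1 to 4 and 605, 498, 569.9 and 440 in control replicates 1 to 4. Its groups were separate too (log2 fold change 0.48, SE 0.131, edgeR, adjusted p = 0.0423, called in 2 of 8 fits). Sdha, the flavin-binding catalytic subunit and the most abundant of the complex at 69.2 CPM per kb of canonical transcript, had 2616, 2439, 2024 and 1841 in Mitol Δ/Δ replicates 1 to 4 and 1838, 1832, 1762 and 1678 in control replicates 1 to 4. Its groups were separate by a narrow margin, and it missed the threshold (log2 fold change 0.31, SE 0.107, edgeR, adjusted p = 0.092). On merged exons Sdhd was the most abundant of the complex, at 32.3 CPM per kb against 25.6 for Sdha. The other anchor, Sdhc, had a log2 fold change of 0.30 with overlapping groups (edgeR, adjusted p = 0.268).

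Complex III passes electrons from ubiquinol to cytochrome c. Its 9 nuclear-encoded subunits all had positive log2 fold changes, 5 were called, and the 5 small accessory subunits had a median of 0.74. Uqcrc1, a core protein on the matrix side (chr9:108765701-108778710 on GRCm39), was the most abundant of the complex, at 123 CPM per kb of canonical transcript. Its normalized counts were 2567, 2519.9, 1987 and 1899 in Mitol Δ/Δ replicates 1 to 4 and 1709, 1628, 1643 and 1427 in control replicates 1 to 4. Every Mitol Δ/Δ library lay above the controls, which were close to one another (log2 fold change 0.47, SE 0.11, edgeR, adjusted p = 0.0264, called in 3 of 8 fits). Its partner Uqcrc2 had a log2 fold change of 0.29, the smallest of the complex, with overlapping groups (edgeR, adjusted p = 0.169).

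Of the catalytic subunits, Cyc1, which is cytochrome c1, had normalized counts of 809, 938, 802 and 693 in Mitol Δ/Δ replicates 1 to 4 and 733, 503, 430.5 and 424 in control replicates 1 to 4. Control replicate 1 reached into the range of the Mitol Δ/Δ libraries, and the other 3 controls lay well below (log2 fold change 0.62, SE 0.166, edgeR, adjusted p = 0.0409, called in 2 of 8 fits). The Rieske iron-sulfur protein Uqcrfs1 had a log2 fold change of 0.32 and did not pass (edgeR, adjusted p = 0.212). Among the small subunits, Uqcr11 had normalized counts of 389, 419, 331 and 308 in Mitol Δ/Δ replicates 1 to 4 and 269, 231, 209 and 198 in control replicates 1 to 4. It was the small subunit with the lowest adjusted p-value (log2 fold change 0.66, SE 0.143, edgeR, adjusted p = 0.0201, called in 3 of 8 fits), and its groups were separate, as were those of Uqcrh, the hinge protein (0.57, edgeR, adjusted p = 0.027), and Uqcr10 (0.79, edgeR, adjusted p = 0.0372). Exons on the other strand share 35.3% of the bases of Uqcr11 and 38.6% of those of Uqcr10. Uqcrb had the largest fold change of the complex (0.96, edgeR, adjusted p = 0.101) on only 25.05 to 31.1 in Mitol Δ/Δ and 9.58 to 17.9 in control libraries, and 40.9% of its windows have a copy elsewhere.

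Complex IV, cytochrome c oxidase, hands electrons to oxygen at a center made of mitochondrially encoded subunits. The nuclear-encoded subunits surround that center, and several come in a common and a tissue form. Of the 10 tested subunits in the common form 3 were called, and Ndufa4, a subunit named for complex I and now placed in complex IV, was called as well. Cox6a1 (chr5:115483701-115487050 on GRCm39) had normalized counts of 1508, 1466, 1226 and 986 in Mitol Δ/Δ replicates 1 to 4 and 892, 841, 722 and 656 in control replicates 1 to 4. The lowest Mitol Δ/Δ library, replicate 4, was above the highest control, and the fold change was 1.65 (log2 0.72, SE 0.14, edgeR, adjusted p = 0.0148, called in 8 of 8 fits). Ndufa4 had 1563, 1452, 1168 and 935 in Mitol Δ/Δ replicates 1 to 4 and 793, 839.5, 771 and 789 in control replicates 1 to 4. Its controls were nearly level, while the Mitol Δ/Δ libraries spread widely above them (log2 fold change 0.66, SE 0.137, edgeR, adjusted p = 0.0177, called in 6 of 8 fits). At 208 CPM per kb of canonical transcript it was the most abundant subunit of the complex. On merged exons Cox6a1 was the most abundant, at 154 CPM per kb against 12.7 for Ndufa4.

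Cox7a2 and Cox5b were the other called subunits of complex IV. Cox7a2 had normalized counts of 668, 610, 582 and 527 in Mitol Δ/Δ replicates 1 to 4 and 473, 335, 361 and 295 in control replicates 1 to 4, with separate groups (log2 fold change 0.69, SE 0.143, edgeR, adjusted p = 0.0177, called in 7 of 8 fits). Cox5b, which binds zinc on the matrix side, had a log2 fold change of 0.61 (edgeR, adjusted p = 0.0442, called in 1 of 8 fits), and 30.1% of its windows have a copy elsewhere. Cox5a had the largest fold change of the complex, at a log2 value of 0.75, and did not pass (edgeR, adjusted p = 0.0632), with control replicate 1 inside the Mitol Δ/Δ range. For Cox6b1, Cox7b, Cox8a, Cox6c, Cox4i1 and Cox7c the log2 fold changes were 0.56, 0.50, 0.48, 0.30, 0.21 and 0.13, with overlapping groups. Cox4i1, the common form of subunit 4, which takes part in the control of the enzyme by ATP, had 924, 959, 896 and 897 in Mitol Δ/Δ and 901, 709.7, 802 and 726 in control libraries, in normalized counts (edgeR, adjusted p = 0.185).

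The tissue forms of complex IV differed in level, with means of 10.1 CPM for Cox6b2, 4.73 for Cox4i2, 2.72 for Cox7a1 and 0.342 for Cox8b. Of the 3 tested, 0 were called. Cox7a1, the form of heart and skeletal muscle, had normalized counts of 24.3, 13.5, 26.5 and 22.2 in Mitol Δ/Δ replicates 1 to 4 and 36.9, 35.1, 27.3 and 18.9 in control replicates 1 to 4. The groups overlapped at a log2 fold change of -0.45 with an SE of 0.35 (edgeR, adjusted p = 0.445). Cox4i2, known from lung and induced by low oxygen, had 75.9, 45.7, 22.0 and 24.3 in Mitol Δ/Δ and 69.9, 40.4, 41.4 and 36.8 in control libraries and a log2 fold change of -0.17 (edgeR, adjusted p = 0.83), whose sign turned to 0.09 without control replicate 1, 0.07 without Mitol Δ/Δ replicate 3 and 0.04 without replicate 4. Cox6b2, the testis form, had a log2 fold change of 0.35 (edgeR, adjusted p = 0.342), and Cox8b, the other muscle form, at 0 to 8.46 normalized counts, was not tested.

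As a share of its family per kilobase, the muscle form Cox7a1 was lower in the Mitol Δ/Δ libraries. On the length of merged exons, Cox7a1 made up 26.1% ± 5.81 (SD, n = 4) of Cox7a1 and Cox7a2 in Mitol Δ/Δ and 43.8% ± 5.07 in control libraries. On the canonical transcript the shares were 6.30% ± 1.70 and 12.9% ± 2.38, and with no correction for length 3.52% ± 0.969 and 7.44% ± 1.47. The level of the share thus depended on the length used, since the merged exons of Cox7a2 span 5914 bases and its canonical transcript 814, but the groups did not overlap in any of these forms. The shares of Cox4i2 in Cox4i1 and Cox4i2 were 9.40% ± 4.95 and 12.2% ± 2.22 on merged exons, and those of Cox6b2 in Cox6b1 and Cox6b2 were 37.2% ± 9.06 and 40.5% ± 2.44, with overlapping groups in both. Cox8b stayed at 0.272% ± 0.227 and 0.292% ± 0.418 of Cox8a and Cox8b. Shares were not tested.

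Ndufa4l2, a paralog of Ndufa4 known as a target of the hypoxia-inducible factor HIF1, was near the floor of detection. It had 0.78, 0, 0 and 0 in Mitol Δ/Δ and 3.96, 1.06, 0 and 6.29 in control libraries, in normalized counts, too few to be tested. Cox7a2l, which joins complexes III and IV into supercomplexes and is related to Cox7a2, had 818, 559, 632 and 819 in Mitol Δ/Δ and 545, 649, 741 and 777 in control libraries. Its groups overlapped in part, at a log2 fold change of 0.04 with an SE of 0.149 (edgeR, adjusted p = 0.895) whose sign turned under upper-quartile normalization (-0.023) and without Mitol Δ/Δ replicate 1, Mitol Δ/Δ replicate 4 or control replicate 1. Of the 6 pseudogenes or copies only Atp5l.ps2 passed the filter, with a log2 fold change of 0.17 (edgeR, adjusted p = 0.84). The other 5, Ndufa11b, Ndufab1.ps, Ndufs5.ps, Cox7c.ps1 and Atp5pb.ps, had at most 15.96 normalized counts in any library.

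**Figure D4:**
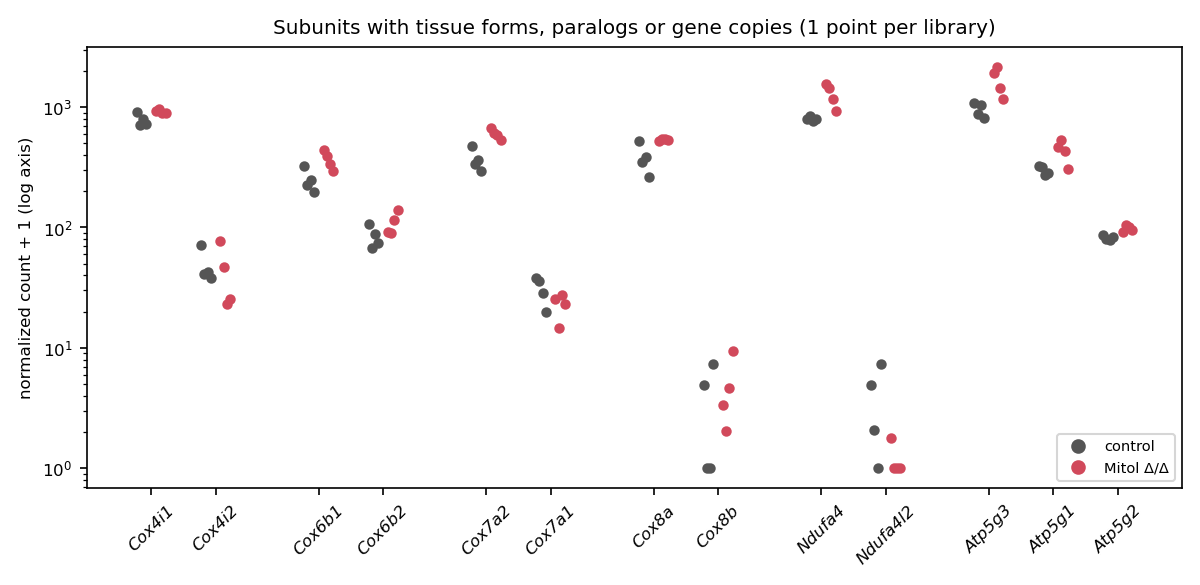
Normalized count + 1 on a log axis for subunits that have tissue forms, paralogs or several genes for the same protein, with 1 point per library. The Mitol Δ/Δ points lie above the control points for Cox7a2, Ndufa4, Atp5g3 and Atp5g2, overlap them for Cox4i1, Cox6b1, Cox8a, Atp5g1, Cox7a1, Cox4i2 and Cox6b2, and stay below 10 for Cox8b and Ndufa4l2.

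Complex V makes ATP in a head of alpha and beta subunits that is turned through a central stalk by a ring of c subunits in the membrane, while a peripheral stalk holds the head still. All 5 subunits of the head and central stalk had positive log2 fold changes, and 3 were called. Atp5b, the catalytic beta subunit (chr10:127919132-127926261 on GRCm39), was the most abundant of all members at 244 CPM per kb of canonical transcript. This rank depended on the length used. On merged exons Cox6a1 was the most abundant member at 154 CPM per kb, and Atp5a1 led complex V at 109 against 102 for Atp5b. Atp5b had normalized counts of 5978, 6003, 4910.3 and 4579 in Mitol Δ/Δ replicates 1 to 4 and 3989, 3327, 3841 and 2886 in control replicates 1 to 4. Its groups were separate, and the fold change was 1.51 (log2 0.59, SE 0.119, edgeR, adjusted p = 0.0158, called in 7 of 8 fits). Atp5a1, the alpha subunit, had 5585, 5816, 4715 and 4645 in Mitol Δ/Δ replicates 1 to 4 and 4311, 3764, 4039 and 3474 in control replicates 1 to 4. This was the smallest change among the called subunits (log2 fold change 0.39, SE 0.0975, edgeR, adjusted p = 0.0309, called in 3 of 8 fits), again with separate groups. Atp5d, the delta subunit of the central stalk, was called at the margin of the threshold (0.52, edgeR, adjusted p = 0.0496, called in 2 of 8 fits), with control replicate 1 inside the Mitol Δ/Δ range. The gamma subunit Atp5c1 (0.44, edgeR, adjusted p = 0.0768) and the epsilon subunit Atp5e (0.39, edgeR, adjusted p = 0.193) did not pass.

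In the peripheral stalk, 2 of 4 subunits were called. Atp5pb, the b subunit, had normalized counts of 779.5, 701, 594 and 521 in Mitol Δ/Δ replicates 1 to 4 and 378, 381, 455 and 427 in control replicates 1 to 4. The groups were separate (log2 fold change 0.64, SE 0.133, edgeR, adjusted p = 0.0177, called in 6 of 8 fits). The oligomycin sensitivity protein Atp5o, listed as Atp5o.1, had a log2 fold change of 0.68 (edgeR, adjusted p = 0.0272, called in 2 of 8 fits), and a pair of overlapping annotated genes bear its name. Atp5h and Atp5j had log2 fold changes of 0.14 and 0.20 with overlapping groups.

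The c ring is made of a single protein encoded by 3 genes, which differ in the targeting sequence that is cut off. Atp5g3, the most abundant of them, had normalized counts of 1922, 2149, 1436 and 1172 in Mitol Δ/Δ replicates 1 to 4 and 1072, 881, 1032 and 810 in control replicates 1 to 4. It rose with separate groups (log2 fold change 0.80, SE 0.167, edgeR, adjusted p = 0.0183, called in 5 of 8 fits). Atp5g1 (0.51, edgeR, adjusted p = 0.0632) and Atp5g2 (0.25, edgeR, adjusted p = 0.376) did not pass, and 76.4% and 88% of their windows have an exact copy elsewhere, against 0% for Atp5g3. On merged exons Atp5g3 made up 87.8% ± 1.25 (SD, n = 4) of the 3 genes in Mitol Δ/Δ and 85.1% ± 1.70 in control libraries, Atp5g1 10.05% ± 0.852 and 11.9% ± 1.43, and Atp5g2 2.19% ± 0.563 and 2.97% ± 0.331. The ranges overlapped for each of the 3 genes.

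The small accessory subunits in the membrane, which help pair ATP synthases in the cristae, were divided. Atp5k, the e subunit, had normalized counts of 158, 177, 147 and 151 in Mitol Δ/Δ replicates 1 to 4 and 120, 70.2, 104 and 55.7 in control replicates 1 to 4. It was called with separate groups (log2 fold change 0.85, SE 0.23, edgeR, adjusted p = 0.0431, called in 2 of 8 fits). Atp5l, the g subunit, had 166, 171, 154 and 204 in Mitol Δ/Δ replicates 1 to 4 and 229, 199, 235 and 254 in control replicates 1 to 4. It was the subunit with the most negative log2 fold change of complex V and missed the threshold (-0.42, SE 0.146, edgeR, adjusted p = 0.0925), a single Mitol Δ/Δ library overlapped the controls, and 61.8% of its windows have a copy elsewhere. Atp5mpl, Atp5j2 and Atp5md had log2 fold changes of 0.46, -0.00 and -0.04, none past the threshold, and 95.3% of the exon bases of Atp5md lie in exons of Taf5 on the other strand.

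Gene copies and overlaps touched many members. More than 5% of the 75-base windows had an exact copy elsewhere in 19 subunits, and more than 10% of the exon bases lay in another gene in 29. Among them were the subunits called in all 8 fits that left out a library, Ndufb5 (14.6% of exon bases) and Cox6a1 (6.44% of windows). Uqcrc1 (17.9% of exon bases), Atp5g3 (22.5%) and Atp5pb (15.4%, and 9.6% of windows) were among them too. Of the 41 subunits with neither copies nor overlaps past these limits, 37 had a positive log2 fold change, 11 were called higher and 0 lower, and their median log2 fold change was 0.35. The called share was 26.8% in this set and 37.5% of the 40 tested subunits with copies or overlaps, whose median was 0.47. Groups were separate in the higher direction for 31.7% and 50%. In complex III, 3 subunits had neither, with 1 called and 0 with separate groups, at a median of 0.62.

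Genes that work with the chain were examined beside its subunits. The 7 mitochondrially encoded subunits in the table, of 13 known ones, all had positive log2 fold changes with a median of 0.26, and 1 was called, mt-Nd2 of complex I (0.63, edgeR, adjusted p = 0.0288). mt-Nd2 had normalized counts of 1126, 1150.3, 818 and 731 in Mitol Δ/Δ replicates 1 to 4 and 591, 569, 557 and 724 in control replicates 1 to 4. The groups were separate by a small margin, and Mitol Δ/Δ replicates 1 and 2 were again the highest. For mt-Co1, the catalytic subunit of complex IV, the counts were 14120, 11761, 10332 and 10165 in Mitol Δ/Δ and 7824, 9298, 9319 and 11673 in control libraries, and the groups overlapped (0.26, edgeR, adjusted p = 0.222). Among 50 tested assembly factors the median was 0.12, and 2 were called higher, Uqcc2 of complex III (0.64, edgeR, adjusted p = 0.0378) and Fmc1 of the ATP synthase (0.67, edgeR, adjusted p = 0.0409), and 0 lower. The share called higher was 4% of the assembly factors and 14.3% of the mitochondrially encoded subunits, against 4.68% of all tested genes.

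Electron carriers and enzymes that feed ubiquinone numbered 21 tested genes with a median of 0.14. Of them 3 were called higher and 1 lower, with 14.3% called higher against 4.68% of all tested genes. Cytochrome c, Cycs, the carrier between complexes III and IV, had normalized counts of 205, 179, 134 and 85.7 in Mitol Δ/Δ replicates 1 to 4 and 67.3, 55.3, 78.2 and 64.7 in control replicates 1 to 4. No Mitol Δ/Δ library fell into the control range (log2 fold change 1.16, SE 0.258, edgeR, adjusted p = 0.0217, called in 4 of 8 fits). Etfa, which brings electrons from fatty acid oxidation (0.69, edgeR, adjusted p = 0.0215), and Coq4, of ubiquinone synthesis (0.46, edgeR, adjusted p = 0.047), were higher. Coq8a, also of ubiquinone synthesis, went the other way with 545, 619, 526 and 747 in Mitol Δ/Δ replicates 1 to 4 and 906, 1283, 998 and 1431 in control replicates 1 to 4. Its groups were separate in the lower direction (log2 fold change -0.94, SE 0.157, edgeR, adjusted p = 0.00823, called in 8 of 8 fits). Of 3 tested carriers of adenine nucleotides and phosphate, Slc25a5, which exchanges ADP for ATP across the inner membrane, was called higher (0.86, edgeR, adjusted p = 0.0195), and Slc25a4 and Slc25a3 had log2 fold changes of 0.29 and 0.19.

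Ribosomal proteins gave a further point of reference among highly expressed housekeeping genes. Of 78 tested mitochondrial ribosomal proteins 62 had a positive log2 fold change and 6 were called higher, with a median of 0.23, and of 82 cytosolic ones 72 were positive and 8 called higher, with a median of 0.15. The shares called higher were 7.69% and 9.76%, against 4.68% of all tested genes. In both lists 0 were called lower. The inhibitor of the ATP synthase, Atpif1, lies outside the rule that chose the members and was looked at after its values were seen. It had 461, 541, 467 and 399.9 in Mitol Δ/Δ and 336, 273, 314 and 239.8 in control libraries, in normalized counts, with separate groups (log2 fold change 0.67, SE 0.136, edgeR, adjusted p = 0.017, called in 6 of 8 fits).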

How the data were processed

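RNA-seq was performed on 8 libraries, 4 per group, each from 100 sorted HSCs. Per the methods of the study, complementary DNA was made with not-so-random primers, libraries with Nextera XT, and single-end reads of 75 bases were aligned to mm39 with STAR, merged with SAMtools and counted per gene with Subread. The authors deposited raw counts without normalization. The annotation and strand setting of the counting are not given in the sources used here. The table holds 23094 rows with at least 11 counts each over the libraries, and 1029 rows without a symbol (0.335% to 0.467% of a library's counts) were left out.

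The members and gene lists were chosen with earlier results of these data known. Counts were tested in edgeR (version 4.0.16) with TMM normalization, its default expression filter, the quasi-likelihood test with group as the sole term, and Benjamini-Hochberg adjustment over 16444 genes at an adjusted p-value under 0.05. Normalized counts are counts divided by DESeq2 size factors (version 1.42.0), and CPM used TMM-scaled library sizes. Positions, exon lengths and overlaps came from the GRCm39 annotation, which named 90 members, and copies of 75-base windows from minimap2 alignment to GRCm39. Isoform shares used CPM per kilobase of merged exons. The fits were tested on simulated counts. Alternatives covered normalization, filter, DESeq2, limma-voom (limma version 3.58.1), a replicate block, transcript length, thresholds and each library left out. Those on the canonical transcript and without members with copies or overlaps were chosen after seeing the data. Named genes were all called members, the extremes and the most abundant subunit of each complex, isoform families, core and catalytic subunits, Marchf5 and called genes of the other lists. A few genes that this rule selects are not reported here. Other subunits and Atpif1 were added after their values were seen. The reads carry no molecular identifiers, so they cannot be taken as independent molecules, and 8 libraries of 100 cells limit the precision.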

Additional observations from a re-analysis of the deposited data

Results flagged for a closer look

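In groups of 4 libraries, a library was singled out where its gap to the nearest other, as a share of the range of the group, exceeded Dixon's critical value. This marked 7 of 132 groups of values, and chance alone marks about 1 group in 20. Control replicate 1 stood above the other controls for Atp5o (listed as Atp5o.1, 255.85 normalized counts), Cox5a (280.9 normalized counts) and Cox4i2 (69.9 normalized counts). Control replicate 2 stood below the other controls for Ndufa1 (60.7 normalized counts) and Ndufs6 (44.7 normalized counts). Mitol Δ/Δ replicate 1 was the only library of its group with a count on Ndufa4l2, at 0.783 normalized counts, which made its share of the Ndufa4 family 0.376% on merged exons. No cause of these values was tested.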

How the results depend on the processing

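The 26 calls came to 40 at an adjusted p-value under 0.10, to 1 under 0.01 and to 11 among subunits without copies or overlaps. The other normalizations, filter, tools and the length offset gave 19 to 39 calls. Over all genes, DESeq2 called 1350 higher and 965 lower, against 770 and 616 by edgeR. Leaving out 1 library at a time gave 3 to 38 members higher and 0 to 1 lower, 167 to 1482 of all genes higher and 192 to 1019 lower, and a median of complex I of 0.30 to 0.41. Medians and summed ratios of the complexes kept their direction under all alternatives run. The log2 fold change of Cox7a2l was -0.023 under upper-quartile normalization and ran from -0.037 to 0.14 without 1 library, where it turned without Mitol Δ/Δ replicate 1 (-0.03), Mitol Δ/Δ replicate 4 (-0.02) or control replicate 1 (-0.037), and that of Cox4i2 ran from -0.63 to 0.092, with 0.092 without control replicate 1, 0.07 without Mitol Δ/Δ replicate 3 and 0.04 without replicate 4. The cause of these changes was not tested.

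Isoform shares, here as means over both groups, moved with the length used. With no correction, the longest transcript and the canonical transcript in turn, Atp5g3 made up 73.4%, 92.5% and 63.9%, Atp5g1 21.2%, 5.68% and 29.7%, Atp5g2 5.39%, 1.78% and 6.33%, and Cox6b2 24.3%, 46.4% and 26.0%, against 86.5%, 10.97%, 2.58% and 38.8% on merged exons. With no correction and the canonical transcript, Cox4i2 made up 4.94% and 5.09%, Cox7a1 5.48% and 9.60%, and, with no correction, Cox8b 0.748%.

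Same-numbered libraries of the groups deviated together with correlations of 0.080, -0.070, 0.053 and 0.067, so the numbers were not taken to pair them. With the replicate number as a block, 30 members were called higher, 24 of the 26 among them, and the medians of complexes I to V were 0.31, 0.39, 0.64, 0.49 and 0.43.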
